A study of Homo sapiens with 12 samples.

Results

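Knockdown of CDK19 and knockdown of CDK8 were pooled as 1 side and compared with control cells, to ask which changes in the H3K27 acetylation map the knockdowns of both kinases had in common. The comparison used 9 of the 12 samples of the series, namely the 6 libraries titled CDK19KD or CDK8KD (3 each) and the 3 titled Control; the 3 Input samples were not analysed here. All 9 came from the breast cancer cell line MDA-MB-231, in which H3K27ac was precipitated from native, unfixed chromatin of 250000 to 500000 cells. The Control cells had been infected with an EV-control lentivirus and the knockdown cells with a lentivirus encoding an shRNA against CDK19 or against CDK8, and all were collected 96 h later. Control cells thus also carried a lentivirus. The number of hairpins per kinase is not given in the sources used here, and the levels of CDK8 and CDK19 were not analysed here. A change counted only where CDK19KD and CDK8KD differed from Control in the same direction.

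CDK8 and CDK19 are closely related kinases that take the same place in the kinase module of Mediator, beside cyclin C, MED12 and MED13. Mediator carries signals from transcription factors bound at enhancers to RNA polymerase II at promoters, and the kinase module joins and leaves it reversibly. H3K27ac is a histone mark of active enhancers and promoters, and broad stretches of it are found at strongly active elements.

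The authors called broad peaks in each library separately. Chromosomes 1 to 22 and X were analysed, and loci are given in hg19, counted from 1. Genes and sequences at these loci were not analysed here. Replicate numbers 1 to 3 recur in each group, and every fit held the number as a block, so that each knockdown library was set against the Control library of its own number. This gives 6 pairs, in which each Control library serves for CDK19KD and again for CDK8KD, so the differences of either knockdown from Control share that library. The labels do not say whether replicates were separate cultures, so p-values measure the spread between these libraries only. More acetylation per cell and more cells with acetylation at a locus cannot be told apart from a peak list. Read depth is unknown, and the share of peaks with a deposited −log10 q of at least 5 lay between 17.1% and 41.3% in Control and between 19.9% and 43.9% in the knockdowns.

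Between knockdown and Control lists as a whole, no measure of the number or extent of peaks passed after adjustment. The knockdown lists held 70219 ± 5042 peaks (SD, n = 6) against 79322 ± 11976 (SD, n = 3) in Control. The log2 ratio of −0.17 did not pass the test (exact permutation p within replicate numbers 0.0741, adjusted over 5 measures 0.185). Peak number was higher in the knockdown library in only 1 of 6 pairs. Peaks covered 285 ± 21.3 Mb (SD, n = 6) in the knockdowns and 297 ± 29.7 Mb (SD, n = 3) in Control (log2 ratio −0.060, exact permutation p = 0.556, adjusted 0.926). Median peak width was 2769, 2040 and 1969 bp in Control replicates 1 to 3. It was 2847, 2198 and 2475 bp in CDK19KD and 3163, 2332 and 2424 bp in CDK8KD. Peaks were thus wider in the knockdown library in 6 of 6 pairs, while the sides overlapped because the replicate 1 libraries had the widest peaks of each group. The log2 ratio of 0.19 had an exact permutation p of 0.037, the smallest that 27 arrangements allow, and 0.185 after adjustment. Without the block the exact permutation p for width was 0.262. For the 20000 strongest peaks per list the sides had nearly the same median width, 6347 ± 482 bp (SD, n = 6) and 6350 ± 194 bp (SD, n = 3), with a log2 ratio of −0.0036 (exact permutation p = 0.963, adjusted 0.963).

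Knockdown lists had a higher mean overlap with each other than with Control lists, while Control lists had a lower one with each other. The Jaccard index, in which the shared covered length is divided by the joint covered length, averaged 0.630 over 18 pairs on the same side and 0.604 over 18 pairs of a knockdown and a Control list. The difference of 0.0254 was the largest among 27 arrangements (exact one-sided permutation p = 0.037, the smallest possible), but without the block it did not pass (exact one-sided permutation p = 0.0952). Pairs of knockdown lists had 0.640 on average over 15 pairs. A CDK19KD and a CDK8KD list had an index of 0.625 on average over 9 pairs, and pairs of Control lists had 0.579 over 3 pairs, below the pairs of opposite sides. The highest index between a knockdown and a Control list was 0.726, for CDK19KD replicate 1 and Control replicate 1.

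The acetylated share of the genome was then compared in windows of 10 kb, as the percentage of each window covered by peaks. Of 112316 windows touched by a peak, 78056 had a mean share of at least 5% and were tested. In 3 windows, 2 on chromosome 6 and 1 on chromosome 17, the share was higher in both knockdowns at an adjusted p under 0.05 (limma, 0.00384% of the windows tested). In 0 windows (0.0%) was it lower. Without Control replicate 1 limma called 90 higher and 704 lower windows. With the block, such a fit holds no difference between the sides within replicate 1. The balance of called windows thus turned on the comparison within that number, not on the Control library alone. At an unadjusted p under 0.05 limma gave 4281 higher windows (5.48%) and 6367 lower windows (8.16%). These were 3068 and 8912 without Control replicate 1, and 2444 and 3184 without Control replicate 3. Leaving out Control replicate 2 gave 3152 and 2268, so at this level the balance turned on the comparison within replicate 2. The median difference over all windows was −0.15 percentage points for the knockdowns together, −2.26 for CDK19KD and 0.88 for CDK8KD, opposite signs that did not hold with shares scaled by total covered length, where the medians were 1.19, 0.98 and 0.16.

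Of the 3 called windows, the largest rise was at chr6:36310001-36320000, inside a merged acetylated region of 37.1 kb. Peaks covered 48.3%, 34.0% and 56.9% of it in Control replicates 1 to 3, 100%, 72.5% and 100% in CDK19KD, and 100%, 79.1% and 100% in CDK8KD. Every knockdown library lay above every Control library. The window rose by 45.6 ± 2.75 percentage points (SE; limma adjusted p = 0.0263), with 44.5 in CDK19KD and 46.7 in CDK8KD. The strongest peak there was 5166 to 13888 bp wide in the Control libraries and 14270 to 36550 bp wide in the knockdown libraries. The deposited fold enrichment of that peak was 3.25, 2.91 and 3.35 in Control, 4.65, 3.91 and 4.49 in CDK19KD, and 3.90, 3.13 and 3.51 in CDK8KD. Each of these values belongs to the calling of its own list, and they were not tested against each other.

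The second window, chr6:6850001-6860000, was covered to 78.2%, 71.4% and 74.5% in Control. The shares were 100%, 100% and 96.2% in CDK19KD and 100%, 98.0% and 97.3% in CDK8KD, so the sides did not overlap. It rose by 23.9 ± 1.40 percentage points (SE; limma adjusted p = 0.0263), with 24.0 in CDK19KD and 23.7 in CDK8KD. Each Control library had 2 peaks in this window and each knockdown library 1, so that a gap between neighbouring Control peaks was bridged in all 6 knockdown libraries. The strongest Control peak was at most 3965 bp wide, while the knockdown peak was at least 10024 bp wide.

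The third window, chr17:28700001-28710000, was nearly full in all libraries, with 88.2%, 89.2% and 88.8% in Control and 100% in each of the 6 knockdown libraries. It rose by 11.3 ± 0.652 percentage points (SE; limma adjusted p = 0.0263). A share cannot exceed 100%, so the spread of 0 between the knockdown libraries is set by this limit. The SE and p here do not measure how far these libraries differ. The second window, at 96.2% to 100% in the knockdowns, lay close to the same limit. Again each Control library had 2 peaks and each knockdown library 1, and the region around it spanned 50.9 kb. The strongest peaks there had deposited fold enrichments of 4.56, 3.56 and 4.29 in the Control lists and 3.95 to 5.07 in the knockdown lists. The Control shares of this window lay within a spread of 0.467 percentage points (SD, n = 3).

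None (0) of these 3 windows differed between CDK19KD and CDK8KD in the limma fit with 3 groups, and 701 of the 78056 windows tested did. The fit of the sides counts a difference between the knockdowns as residual spread. It thus favours windows where the knockdowns agree, so their agreement is no separate evidence of a shared change. All 3 had the same adjusted p, and the next window, at 0.0508, did not pass. The 3 calls held without Control replicate 1, while leaving out any other single library moved the adjusted p of all 3 above 0.05 (0.0540 to 0.305). Scaled shares, a fit with 3 groups, robust moderation, no minimum share and peaks of a −log10 q of at least 5 also moved all 3 above 0.05. Without the block the first window was lost (limma adjusted p = 0.175), and among the 20000 strongest peaks the second (0.220).

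**Figure D1:**
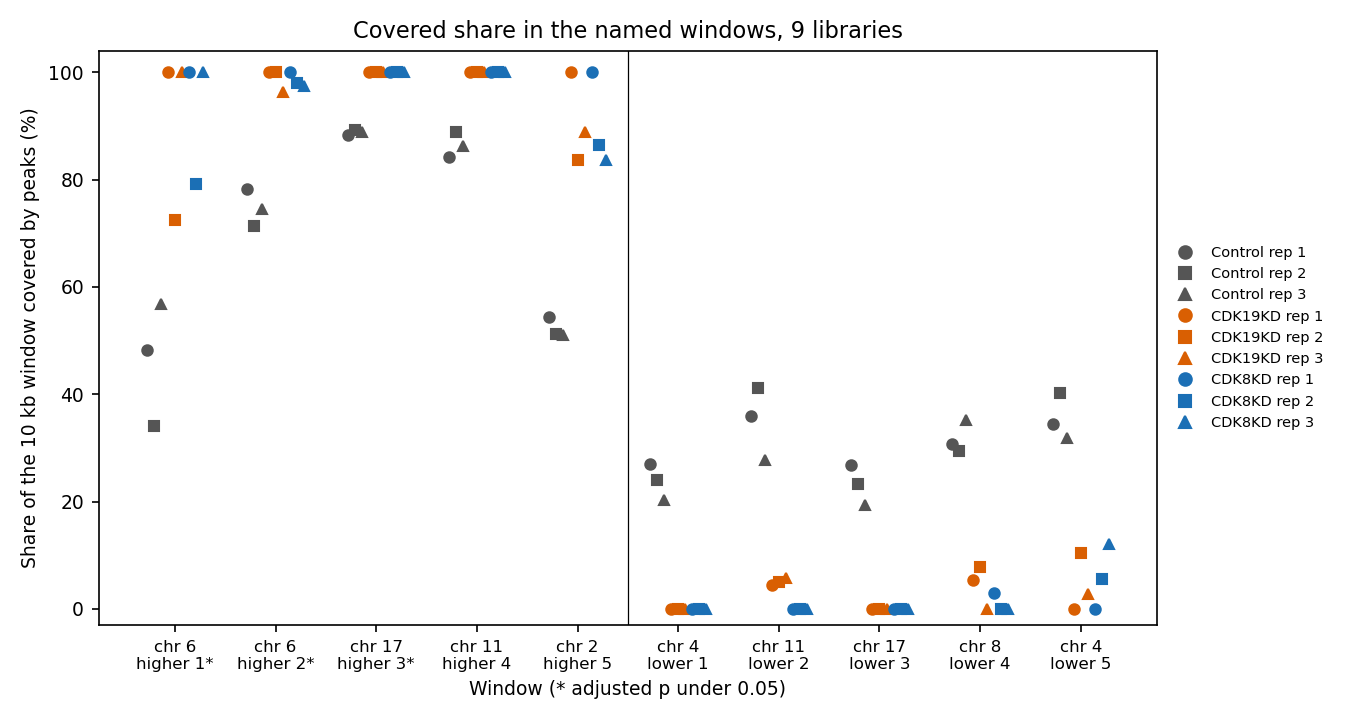
Share of each 10 kb window covered by peaks (vertical axis, percent) for the 5 higher and 5 lower windows with the smallest p. Each point is 1 library, with colour for the group, shape for the replicate number and a star on the axis label where the adjusted p was under 0.05. In the 3 starred windows all knockdown points sit above all Control points, and in lower windows 1 and 3 all knockdown points sit at 0%.

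Next in order of p came chr11:106330001-106340000, covered to 84.1%, 89.0% and 86.2% in Control and to 100% in every knockdown library (difference 13.6 percentage points, limma adjusted p = 0.0508). Its 2 Control peaks were also 1 peak in each knockdown library, and its knockdown shares again stood at the limit of 100%. At chr2:85930001-85940000 the Control shares were 54.4%, 51.2% and 51.0%. The knockdown shares there were 100%, 83.6% and 88.8% in CDK19KD and 100%, 86.5% and 83.6% in CDK8KD (difference 38.2 percentage points, limma adjusted p = 0.0508). In these windows too the sides did not overlap. Over all windows tested, every knockdown library lay above every Control library in 2112 windows (2.71%) and below in 1213 windows (1.55%). The knockdown share was 100% in all 6 libraries of 1225 of the 78056 windows tested. Of these, 950 were at 100% in all 9 libraries, and in 15 every Control library had under 90%.

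The windows with the smallest p for a lower share had an adjusted p of 0.111 and did not pass. In these windows the Control libraries covered between 19.3% and 41.1%. At chr4:22360001-22370000 the share was 27.01%, 23.9% and 20.3% in Control and 0% in all 6 knockdown libraries. The Control peaks there were 2027 to 2701 bp wide with a fold enrichment of 2.12 to 2.34. At chr17:75550001-75560000 the share was 26.8%, 23.3% and 19.3% in Control and 0% in the knockdowns, again from 1 peak of 1931 to 2675 bp per Control library. At chr11:11930001-11940000 the Control shares were 36.0%, 41.1% and 27.8%. CDK19KD kept 4.40%, 5.07% and 5.67% of that window in a narrow peak, and CDK8KD had 0%. The remaining windows of this kind were chr8:110030001-110040000, with a difference of −29.0 percentage points, and chr4:119610001-119620000, with −30.4. In all 5 the sides did not overlap and the share was lower in 6 of 6 pairs, which the choice by smallest p favours. All 6 knockdown libraries were at 0% and every Control library above 10% in 11 windows.

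**Figure D2:**
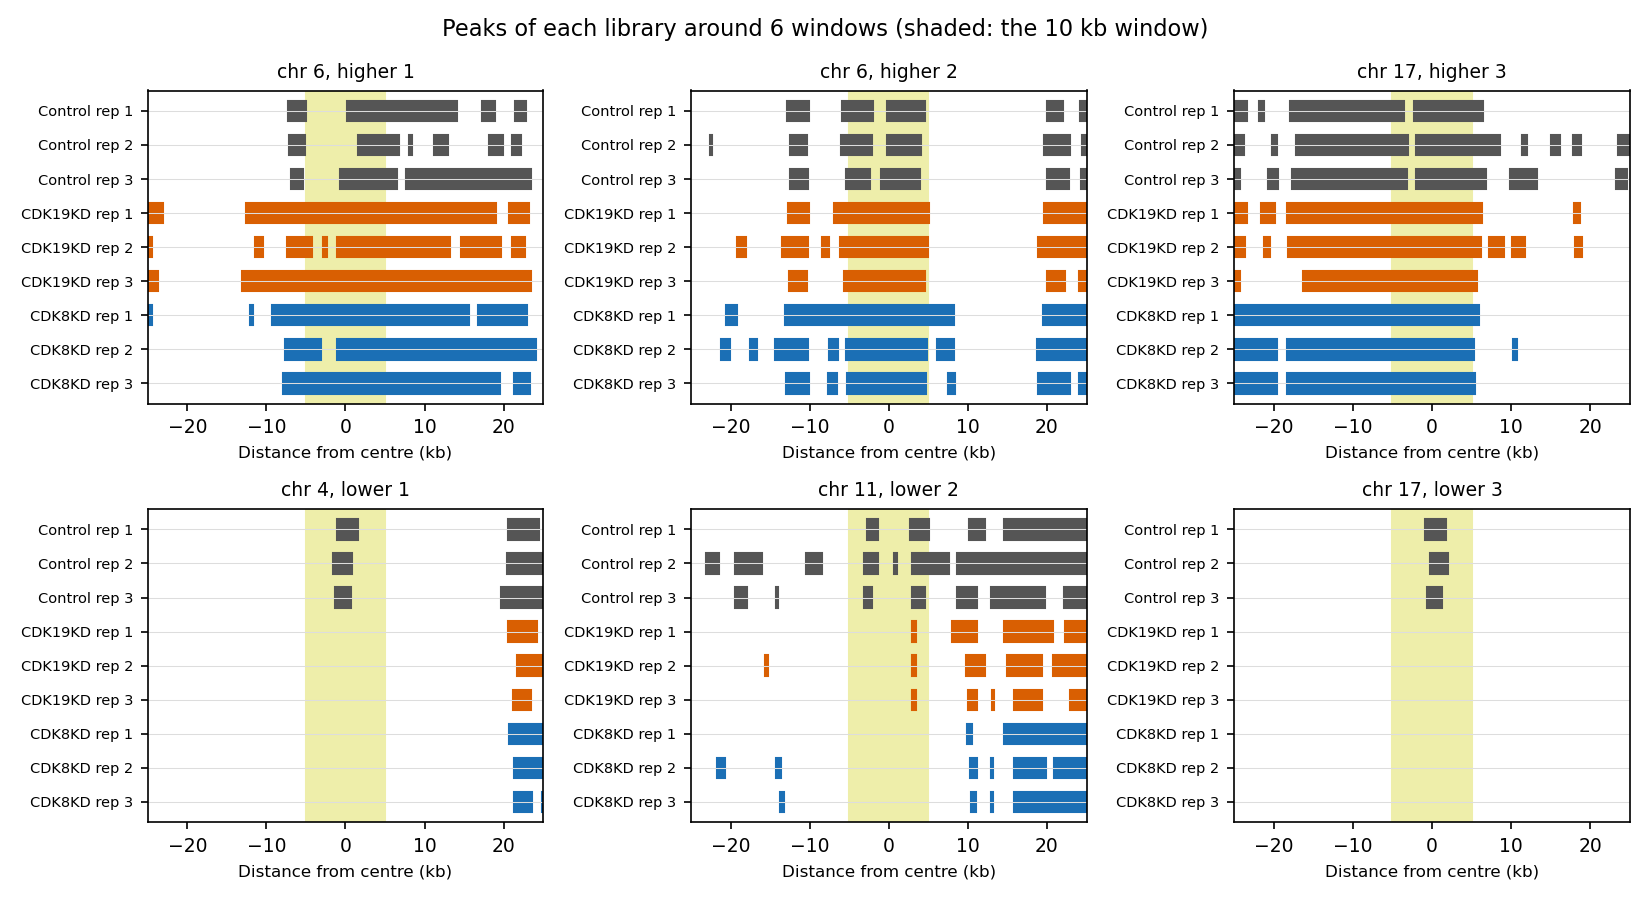
Peaks of each library (bars, 1 row per library, grey for Control, orange for CDK19KD and blue for CDK8KD) against distance in kb from the centre of the window, which is shaded. The top panels show the 3 windows called higher, where Control peaks are shorter or leave a gap that the knockdown peaks span, and the bottom panels show the first 3 lower windows, where the Control peaks are short.

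Acetylation was also compared where every library had a peak, since there the question is how far the stretch extends. Merging the peaks of all lists gave 120363 regions, and all 9 libraries held 34047 of them (28.3%, 375 Mb). In 0 of these constant regions (0.0%) was the covered length larger in both knockdowns at an adjusted p under 0.05, and in 0 (0.0%) smaller (limma, lowest adjusted p 0.0624). At an unadjusted p under 0.05, 2797 were wider (8.22%) and 1769 narrower (5.20%), and the median log2 difference was 0.016, with −0.053 in CDK19KD and 0.096 in CDK8KD. With covered lengths scaled by each list's total, the medians were 0.095 in CDK19KD and 0.068 in CDK8KD, and limma called 101 wider and 10 narrower regions. Then 3853 and 1377 had an unadjusted p under 0.05. A fit with 3 groups, whose residual spread leaves out the difference between the knockdowns, called 409 wider and 80 narrower regions.

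The 5 wider regions with the smallest p all had an adjusted p of 0.0624, above the threshold. In chr6:135141916-135149436 peaks covered 383, 348 and 798 bp in Control, 3835, 3456 and 3480 bp in CDK19KD, and 6888, 2726 and 4969 bp in CDK8KD. That is a log2 difference of 3.09 ± 0.336 (SE), or 8.51-fold, and the lowest knockdown length was above the highest Control length. The peaks there were not strong. By −log10 p the strongest ranked at percentile 8.53, 54.1 and 53.3 of its list in Control and at 33.3 to 51.7 in the knockdowns. In chr2:241186886-241197675 the lengths were 1819, 1466 and 3599 bp in Control, 6536, 7148 and 7885 bp in CDK19KD, and 6433, 6382 and 10154 bp in CDK8KD (log2 difference 1.78). In chr22:19970197-19974774 Control had 1344, 1357 and 1650 bp, CDK19KD 3848, 4351 and 4573 bp, and CDK8KD 3819, 4263 and 4365 bp (log2 difference 1.54). The knockdown libraries of this region lay closer together than in the others. The other regions were chr17:45370393-45378590, with a log2 difference of 1.41, and chr12:10482938-10495916, with 1.15. In all 5 the sides did not overlap and CDK19KD and CDK8KD had similar differences, such as 1.75 and 1.81 for the region on chromosome 2. Choosing by smallest p favours such regions, so this is no separate evidence.

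Among narrower regions the smallest adjusted p was 0.0624, for chr11:102251322-102283885. Its covered length was 3322, 20782 and 31816 bp in Control, 896, 9077 and 11573 bp in CDK19KD, and 966, 4690 and 9771 bp in CDK8KD (log2 difference −1.70). Here the sides overlapped, because Control replicate 1 had less than 4 of the 6 knockdown libraries, and the ordering held only within replicate numbers. In chr13:37594320-37607092 the Control lengths of 3539, 12773 and 5972 bp stood above 536 to 1311 bp in the knockdowns (log2 difference −2.70, limma adjusted p = 0.0718). In chr4:185360849-185376919 Control had 13718, 10795 and 14941 bp, while the knockdown libraries had between 6741 and 7793 bp (log2 difference −0.83, limma adjusted p = 0.0718). This stretch was 1 or 2 peaks in the Control libraries and 3 or 4 in the knockdown libraries, the reverse of the bridged gaps above. The last were chr17:27724228-27742489, with −1.77 and overlapping sides, and chr3:100010919-100041972, with −1.37. Over all constant regions every knockdown library lay above every Control library in 1136 (3.34%) and below in 546 (1.60%).

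**Figure D3:**
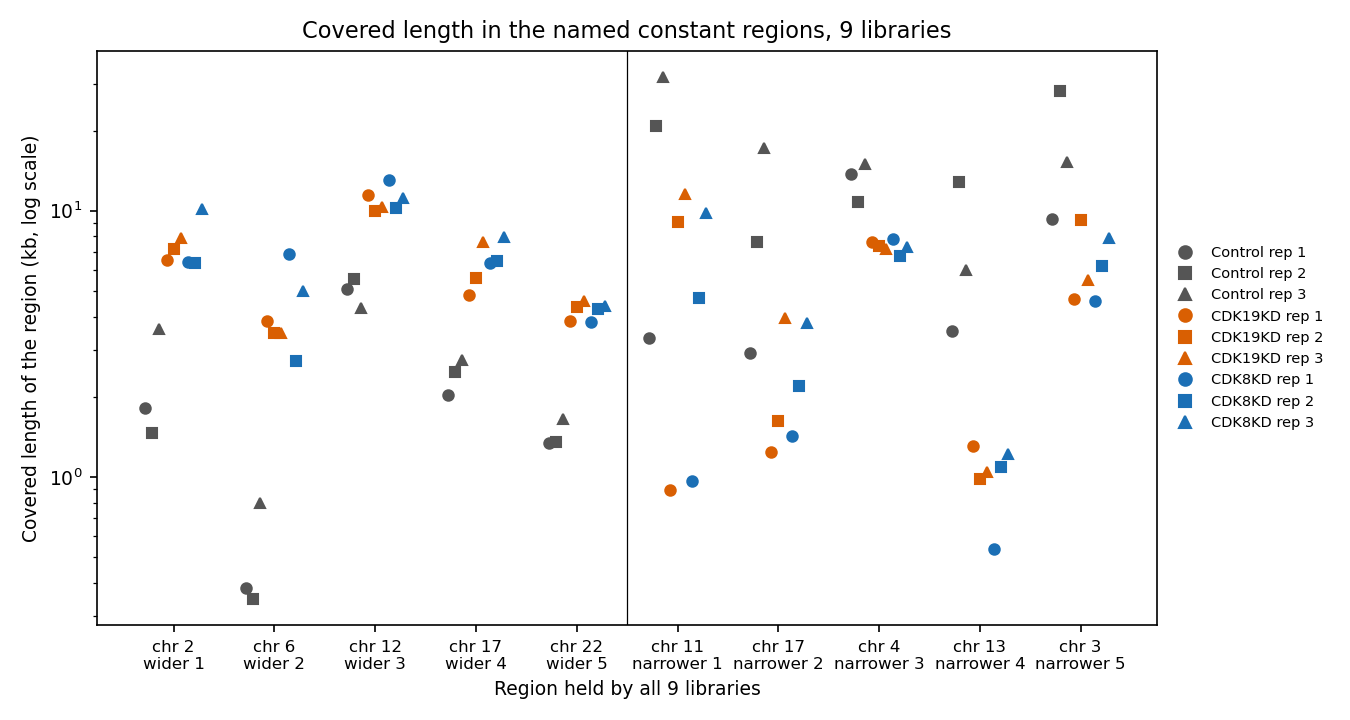
Covered length in kb (log scale) of the 5 wider and 5 narrower constant regions with the smallest p, none past the threshold. Each point is 1 library, with colour for the group and shape for the replicate number. The wider regions separate the sides, while in the narrower regions 1 and 2 the Control points spread over a wide range and overlap the knockdown points.

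Regions present on 1 side only were few and weak. All 6 knockdown libraries and no Control library held 103 regions (0.0856% of 120363), and all 3 Control libraries and no knockdown library held 119 (0.0989%). They were chosen by presence, so their values are a description. Every chromosome from 1 to 22 and X had at least 1 of either kind, with the most of the former on chromosome 2 (15), chromosome 1 (10) and chromosome 17 (9). These are 14.6%, 9.71% and 8.74% of them, where 8.87%, 9.93% and 4.08% of all regions not held by all 9 libraries lay on these chromosomes. Their peaks ranked low in their own lists by −log10 p, with a median percentile of 32.4 for knockdown regions and 23.4 for Control regions, and 0 regions had a mean percentile above 50. The median fold enrichment was 2.44 and 2.25. Knockdown regions had a median width of 3317 bp and Control regions 2080 bp, which is close to that of any regions held by 6 of the 9 libraries (3178 bp) and by 3 of the 9 (2024 bp). A constant region lay within 10 kb of 48.5% of the knockdown regions and 38.7% of the Control regions. The nearest was over 100 kb away from 7 (6.80%) and 3 (2.52%) of them. Of any regions held by 6 of the 9 libraries, 45.2% lay within 10 kb and 7.53% over 100 kb away, close to the knockdown regions. Of those held by 3 of the 9 it was 50.7% and 5.86%, both above the Control regions. These differences were not tested. Another region of the same side lay within 100 kb of 4 knockdown regions and 6 Control regions. No such count was made for other sets of regions, so it cannot be called low or high.

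The −log10 p values below belong each to the calling of their own list, and lists are not compared by them. The knockdown region whose peaks ranked highest was chr16:67245322-67249020, 3699 bp wide and 9047 bp from a constant region. Its −log10 p was 5.86, 5.11 and 8.73 in CDK19KD and 2.99, 2.55 and 3.76 in CDK8KD. At chr2:146712894-146719124 it was 7.10, 4.72 and 10.5 in CDK19KD and 3.13, 2.60 and 2.95 in CDK8KD. At chr11:1864785-1868251 they were 4.03, 2.98 and 9.40 in CDK19KD and 2.57, 5.76 and 4.59 in CDK8KD. At chr17:36745399-36749883 the values were 4.95, 3.11 and 4.28 in CDK19KD and 3.71, 3.75 and 4.89 in CDK8KD. At chr22:24978722-24982103 they were 3.31, 2.90 and 3.41 in CDK19KD and 4.88, 3.72 and 5.02 in CDK8KD. The widest was chr7:36073083-36081056, with 7974 bp. The regions chr19:56035468-56038047 and chr12:54696792-54701767 lay only 237 and 711 bp from a constant region. The remaining regions among the first 10 were chr18:46428094-46430278 and chr1:186120660-186122731.

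Among regions held by Control alone, the highest ranked was chr5:157136756-157138897, 2142 bp wide, with −log10 p of 4.01, 3.59 and 3.15. Then came chrX:41513451-41516399 (3.97, 3.44 and 3.24), 89392 bp from a constant region, and chr13:20251781-20252320 (4.44, 2.65 and 4.81), which at 540 bp was the narrowest. The others among the first 10 were chr11:27263832-27265095, chrX:151986433-151989448, chr2:139835283-139839992, chr2:175337774-175339751, chr11:29473216-29475557, chr1:162596488-162597283 and chr8:76373447-76376742. Each had a −log10 p under 6 in every Control library.

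**Figure D4:**
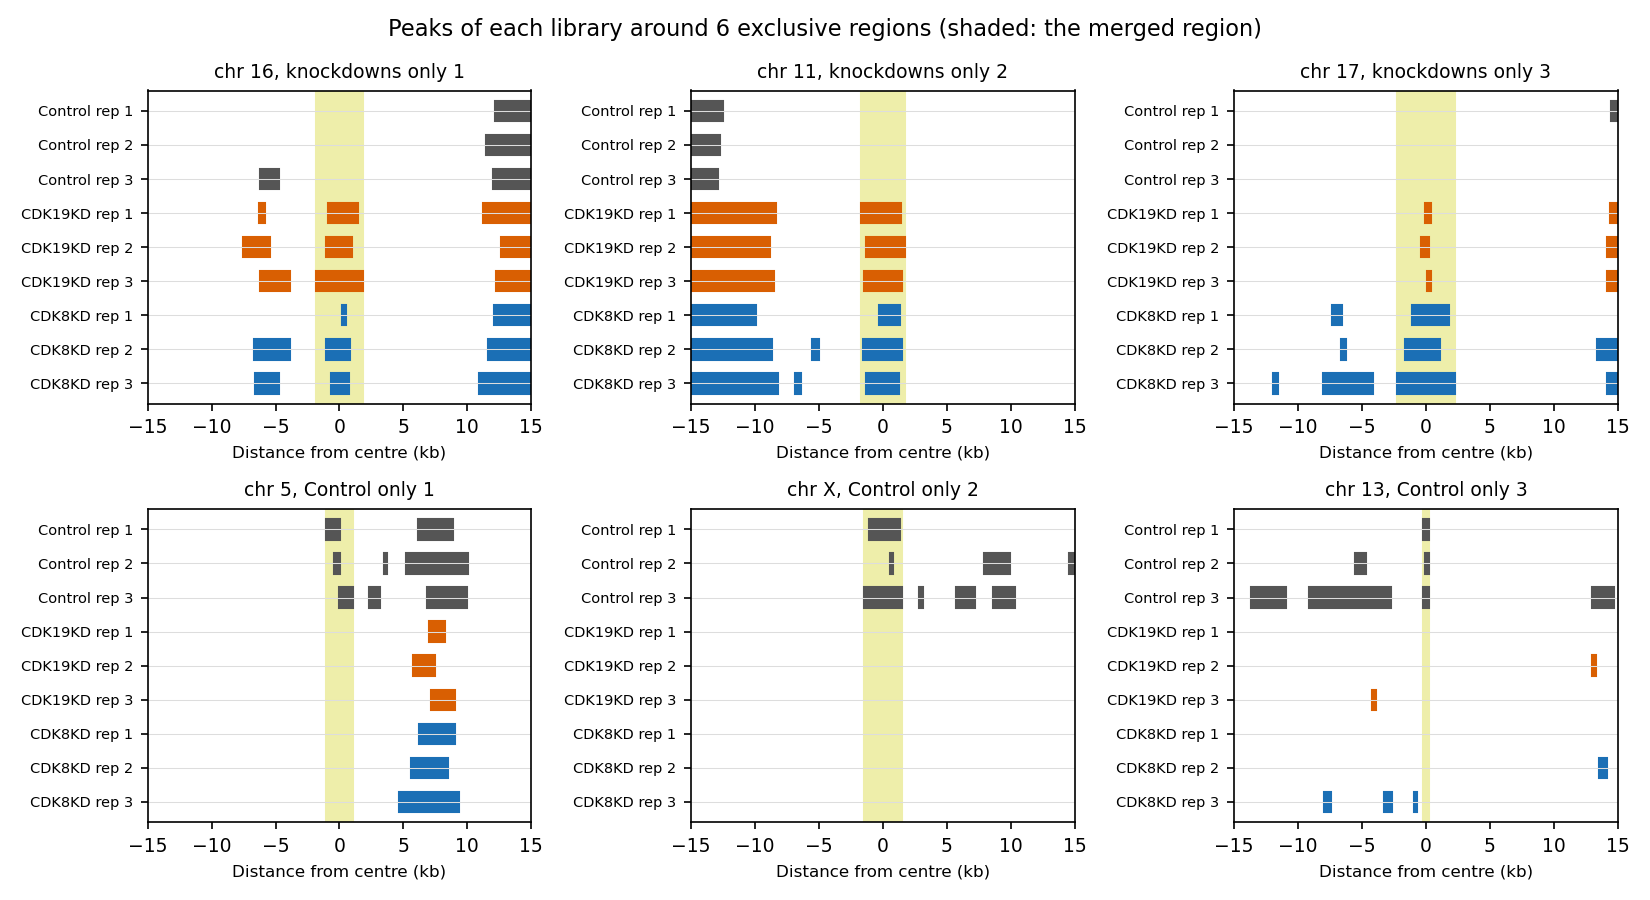
Peaks of each library (bars, 1 row per library, coloured by group) against distance in kb from the centre of the region, which is shaded. The top panels show the first 3 regions held by the knockdowns only and the bottom panels the first 3 held by Control only, in each of which the libraries of the other side have no peak in the shaded stretch.

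The exclusive regions were the end of a gradient of presence. All 6 knockdown libraries and 1 Control library held 437 regions, and 5 knockdown libraries and no Control library held 269. All 3 Control libraries and 1 knockdown library held 267. Regions of a single library were far more frequent, with 28202 held by 1 Control library and no knockdown library and 18098 held by 1 knockdown library and no Control library. Leaving out a Control library loosens the rule for either kind of exclusive region, so the counts could hardly fall. Without Control replicate 1, 304 regions were held by the knockdowns alone and 2370 by Control alone. The counts were 186 and 283 without Control replicate 2, and 259 and 577 without Control replicate 3. With 50% of a region to be covered they were 214 and 128, of which 1 and 18 were among the regions above. At a −log10 q of at least 5 the counts were 18 and 3, and 0 of these were among the regions above.

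**Figure D5:**
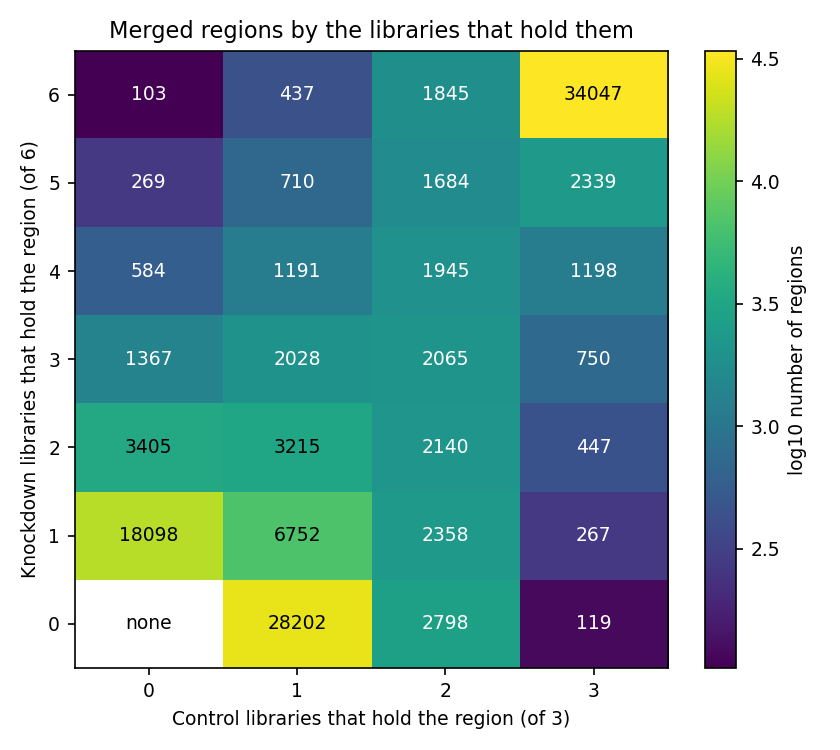
Number of merged regions by how many Control libraries (horizontal axis, of 3) and knockdown libraries (vertical axis, of 6) hold them, with the count printed in each cell and colour on a log10 scale. The exclusive regions are the corner cells of 103 and 119, and both are small beside the 34047 regions held by all libraries.

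The share of a list's covered length on each of 23 chromosomes was also compared between the sides. The smallest exact permutation p within replicate numbers is 0.037, so after adjustment over 23 chromosomes a change of a single chromosome could not have passed, and 0 passed (lowest adjusted p 0.426). Chromosomes 19 and 3 had the unadjusted exact p of 0.037. Chromosome 19 held 3.02% of the covered length in Control and 3.45% in the knockdowns, higher in 6 of 6 pairs. Chromosome 3 held 6.96% and 6.73%, higher in 0 of 6 pairs. Chromosome 22 was also higher in 6 of 6 pairs, and chromosome 5 in 0 of 6. Within the pairs, the share of windows with more coverage in the knockdown library was 47.3%, 34.0% and 42.3% for CDK19KD replicates 1 to 3 and 54.5%, 46.1% and 52.0% for CDK8KD. The constant regions were wider in the knockdown library in 52.9%, 35.7% and 48.3% of cases for CDK19KD and in 64.2%, 51.2% and 62.4% for CDK8KD. In every replicate number CDK8KD had the higher share of windows with more coverage and of wider regions. Replicate 2 had the lowest such shares in each knockdown.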

How the data were processed

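Native H3K27ac ChIP-seq of 9 libraries was analysed from the authors' peak lists, 1 per library. MACS2, deepTools and hg19 are named in the submitters' processing notes, without version; settings, control library and aligner are not given in the sources used here. Per the layout of the deposited lists, each broad peak carries a fold enrichment (a linear ratio) and the −log10 of a p-value and of a q-value, which the authors' caller gave per list; they were used here to describe, rank or filter peaks of 1 list only. The lists hold no counts, so no count model was used.

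Groups and replicate numbers came from the titles. Touching or overlapping peaks were merged into regions, which a library held with at least 1 bp. Covered shares of 10 kb windows (mean of at least 5%) and log2 covered lengths of constant regions were fitted with limma 3.58.1 (R 4.3.3; lmFit, eBayes with a trend) with the replicate block, Benjamini-Hochberg adjusted over all features and called at 0.05. Values per library were tested by exact permutation within replicate numbers (27 arrangements, two-sided, except similarity). Named were all called windows, the features of smallest p up to 5 per direction, and the 10 exclusive regions per side with the highest mean percentile by −log10 p. Members and lists were chosen with earlier results of these data known. The limma step was tested on simulated data.

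After group means were removed, window shares of same-numbered libraries had a correlation of 0.138 to 0.611 (mean 0.407). It was above 0.1 in 9 of 9 pairs, so the numbers were treated as pairing. Pairs of different numbers averaged −0.203, with 2 of 18 above 0.1 (highest 0.203). Removing group means ties this average to that of same-numbered pairs, so it is no separate evidence. By Jaccard index the replicate 1 knockdown lists and CDK8KD replicate 3 were closest to the Control list of their own number. The replicate 2 knockdown lists and CDK19KD replicate 3 were closest to Control replicate 1. Alternatives were no block, 3 groups, robust moderation, 5 kb windows, scaling by total covered length, no minimum share, the 20000 strongest peaks, a −log10 q of at least 5, 50% of a region covered, merging within 1000 bp, 1 library fewer, and leaving out each library. Window fits without the block for these filters on peaks were chosen after seeing the data.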

Additional observations from a re-analysis of the deposited data

Results flagged for a closer look

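The share of the covered length on chromosome 15 was 2.52% in CDK19KD replicate 2, and between 2.76% and 2.85% in the other 5 knockdown libraries, so this library stood apart from its side. The gap exceeded Dixon's 95% critical value for 6 samples (0.625). The rule was applied to 58 groups of values, and chance flags about 1 in 20 groups. Control replicates 2 and 3 had 2.57% and 2.58%, close to this library, and Control replicate 1 had 2.77%.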

How the results depend on the processing

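For the 14 main results, 99 of 181 alternative values stayed, 22 lost the threshold, 49 moved and 11 changed sign. Among these, a test stayed if it kept its sign and its side of 0.05, and a count if it changed at most 1.5-fold. The size of a tested difference did not enter. Permutation tests without 1 library cannot pass 0.05, so whether they passed was fixed in advance. For the 40 named loci, 120 of 250 values stayed, 41 lost the threshold, 31 passed it, 58 moved and 0 changed sign. The 58 are shares of libraries that hold an exclusive region, which cannot change sign. What caused these changes was not tested. Without the replicate block, the width ratio stayed at 0.19 (exact permutation p = 0.262) and the similarity difference at 0.0254 (exact permutation p = 0.0952), and limma called 25 higher and 9 lower windows, which include 2 of the 3 reported. Called windows numbered 0 higher with 3 groups, robust moderation, no minimum share or scaled shares, and 32 higher and 7 lower with 5 kb windows. At a −log10 q of at least 5 there were 13 higher and 1 lower, with 0 of the 3 reported (35 and 7 without the block), and among the 20000 strongest peaks 39 and 32 (66 and 43 without the block). Constant regions gave 409 wider and 80 narrower with 3 groups, 101 and 10 scaled, and 2 wider with the 20000 strongest peaks. Windows differing between the knockdowns fell from 701 to 143 at a −log10 q of at least 5. At that level the log2 ratio of peak number was 0.15, of covered length 0.11 and of width −0.055, and the similarity difference was 0.0077 (exact permutation p = 0.0741). With the 20000 strongest peaks the latter was 0.0177 (exact permutation p = 0.0741). Regions exclusive to the knockdowns numbered 214 with 50% covered, 372 with 1 library fewer, 18 at a −log10 q of at least 5 and 28 among the 20000 strongest peaks, and those exclusive to Control 2917, 3 and 38 under the last 3.

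Leaving out 1 library gave 0 to 90 higher and 0 to 704 lower windows. The highest counts came without Control replicate 1, 9 were higher without Control replicate 3, and the other 7 fits called 0. Exclusive regions ranged from 125 to 304 and from 144 to 2370, highest without Control replicate 1. Fewer libraries loosen the rule for these regions, so higher counts follow from it. Log2 ratios ranged from −0.24 to −0.13 for peak number, −0.14 to −0.0061 for covered length and 0.13 to 0.23 for width, and the similarity difference from 0.0184 to 0.0569. With so few arrangements these tests cannot pass 0.05. For the 20000 strongest peaks the ratio of covered length ranged from −0.044 to 0.057 and changed sign without Control replicate 1 (−0.044) or CDK8KD replicates 1 (−0.025), 2 (−0.014) or 3 (−0.029). That of their width ranged from −0.037 to 0.030 and changed sign without Control replicate 2 (0.029) or CDK19KD replicates 1 (0.0091), 2 (0.029) or 3 (0.030). Depth is unknown, so weak peaks missed by a list and peaks absent from it cannot be told apart.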

Other observations

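With lists of equal length limma called more windows in both knockdowns, where a call depends on which peaks rank among the 20000 strongest. With the 20000 strongest peaks of each list, 41559 windows were tested. Limma with the block gave 39 windows higher and 32 lower in both knockdowns (adjusted p under 0.05), joined to 37 and 30 loci on 14 and 13 chromosomes. In all 37 and all 30 loci the direction was the same in 6 of 6 pairs, and the sides overlapped in 0 of the higher and 1 of the lower loci. The loci were chosen by p and by a common sign on these same values. These counts therefore follow largely from the choice and are no separate evidence. Only 2 of the 39 windows were also called with all peaks.

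At chr10:114670001-114680000 strong peaks covered 0% in each Control library, 93.8%, 94.7% and 92.4% in CDK19KD, and 94.2%, 94.9% and 90.4% in CDK8KD (difference 93.4 percentage points, SE 2.99). With all peaks the Control libraries had 88.1%, 82.9% and 78.4% there. At chr5:148820001-148830000 strong peaks covered 5.59%, 0% and 5.62% in Control and 84.4% to 100% in the knockdowns, where all peaks gave 77.5%, 76.6% and 79.9% in Control. The other first loci were chr11:65320001-65330000, chr6:6690001-6700000 and chr6:47060001-47070000, with differences of 89.3, 87.3 and 86.5 percentage points. Among lower loci, chr15:52770001-52780000 had 86.4%, 100% and 69.3% in Control and 0% in each knockdown library (difference −85.2), where all peaks gave 37.7% to 85.6% in the knockdowns. At chr1:197110001-197120000 strong peaks covered 78.8%, 83.2% and 73.5% in Control and 0% in the knockdowns (difference −78.5), but all peaks gave 72.4% to 82.4% in the knockdowns, within the Control range or close to it. At chr7:18790001-18800000 the shares were 72.4%, 60.6% and 73.1% against 0%. With all peaks the knockdown libraries covered 31.4% to 45.7% of that window and the Control shares stayed as they were. Not every lower locus kept its direction with all peaks. At chr11:10610001-10620000 (difference −53.2) all peaks gave 58.5%, 59.3% and 41.8% in Control. The shares there were 78.7%, 67% and 48.4% in CDK19KD and 63.2%, 59.35% and 35.7% in CDK8KD. Control had no strong peak at 18 of the 37 higher loci but no peak at all at only 1. The knockdowns had no strong peak at 26 of the 30 lower loci and no peak at all at 0. At the others at least 1 library of that side had a peak of lower rank.

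Peaks of a −log10 q of at least 5 gave 18 regions held at that level by all 6 knockdown libraries and no Control library, and 3 the other way. All 18 and all 3 also had a weaker peak in all libraries of the other side. The highest ranked was chr18:19801003-19811694, with a −log10 q of 4.48, 3.48 and 4.67 in Control, 6.42, 6.06 and 12.3 in CDK19KD, and 10.1, 10.7 and 11.6 in CDK8KD. At chr17:63157556-63163592 it was 4.55, 4.68 and 4.73 in Control, 9.62, 6.18 and 18.8 in CDK19KD, and 6.39, 6.77 and 7.76 in CDK8KD. The 3 regions of Control were chr17:76209798-76217264 (16.9, 5.55 and 6.87), chr3:123586523-123592418 (8.23, 5.88 and 7.40) and chr1:27469432-27474649 (5.73, 6.03 and 6.08). Of the 18, 8 lay on chromosome 6, which held 6.12% of the 31575 regions of such peaks; chromosome 6 was singled out after these values were seen. Its share of the covered length was 5.78% in Control and 5.69% in the knockdowns (exact permutation p = 0.556).

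Windows were also grouped by their mean share, a split chosen after the data had been seen. In windows of 5 to 25% the knockdowns had 2.20 percentage points less than Control (12.6% and 14.8%, exact permutation p = 0.296). In windows of 75 to 100% they had 1.19 points more (88.9% and 87.7%, exact permutation p = 0.519). Of 9 such tests none (0) passed, and all had an adjusted p of 0.926.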
